A study of Mus musculus with 103 samples.

Results

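The genes described here are the nuclear-encoded subunits of the oxidative phosphorylation system, followed across the early mouse face. They were taken by symbol: every gene whose name starts with Ndufa, Ndufb, Ndufc, Ndufs, Ndufv, Uqcr, Cox4 to Cox8 or Atp5, and Sdha to Sdhd. The rule found 89 genes of the 19938 that a probe set with only that symbol measured. By the start of the symbol, 36 were counted with complex I, 4 with complex II, 8 with complex III, 17 with complex IV and 17 with complex V. The 36 include Ndufa4, named for complex I but now assigned to complex IV, and its relative Ndufa4l2. The other 7 start with Ndufaf and encode complex I assembly factors, which are not subunits; they were kept because the rule takes them and are given separately. All 89 were tested, with no filter on low values. No mitochondria-encoded subunit was among the genes measured.

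The samples were tissues cut by laser capture from frozen sections of embryos of the outbred CD1 strain, with no treatment or mutation named, and hybridised to Affymetrix arrays after whole-transcriptome amplification. There were 103 libraries: 22 labelled groups of 4 to 7, and 1 E9.5 library whose labels conflict, which entered no comparison. At E8.5 the groups were mesenchyme and the caudal, floor plate and non-floor plate neural epithelium. At E9.5 they were cranial mesenchyme, epidermal ectoderm, mandibular arch, maxillary arch, neuroepithelium and otic vesicle. At E10.5 they were neuroepithelium of the midline, of a control region away from the facial eminences, and underlying the lateral and the medial nasal prominence, together with lateral nasal eminence, medial nasal prominence, mandibular and maxillary arch, the epidermal ectoderm of each arch, olfactory pit and Rathke's pouch. Nothing in the labels says which libraries share an embryo, so p-values measure the spread between libraries and are too small where captures came from the same animal.

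All values are log2 of a ratio that the authors deposited. Over 21 libraries drawn from 19 of the groups, the median ratio of every probe set was 1, so 0 stands for the level typical of that set and not for absence. A difference between groups is a difference of mean log2 ratios. It was called where limma's adjusted p was under 0.05.

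Oxidative phosphorylation passes electrons from NADH through complex I, or from succinate through complex II, to ubiquinone, on through complex III and cytochrome c to complex IV, where oxygen is reduced. The proton gradient built on the way drives ATP synthesis by complex V. Complex II is also an enzyme of the citric acid cycle. Each large complex joins a few catalytic subunits to many small accessory ones, and some subunits of complexes IV and V exist as isoforms encoded by separate genes. Early mouse embryos rely strongly on glycolysis, and their mitochondria mature during organogenesis.

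Promoter windows of 4 members are shown. Sdha and Atp5b kept their difference between E10.5 neuroepithelium and the nasal prominences in every setting tried. Uqcrc1 and Atp5g3 are further called members, picked because their windows held a motif, so these 4 do not stand for the called members. The sequences are RefSeq's (build GRCm38.p6), run from 250 bases before the annotated start to 50 after it, and read 5′ to 3′ on the gene's strand. Capitals mark matches, on either strand, to GCGCA and GCGC with 1 base of any kind (N) between them, the letters used here for nuclear respiratory factor 1 (NRF1), a regulator of many respiratory chain genes. Sdha lies at chr13:74350191-74350490 on the minus strand, Atp5b at chr10:128083057-128083356 on the plus strand, Uqcrc1 at chr9:108936398-108936697 on the plus strand and Atp5g3 at chr2:73911277-73911576 on the minus strand.
Sdha: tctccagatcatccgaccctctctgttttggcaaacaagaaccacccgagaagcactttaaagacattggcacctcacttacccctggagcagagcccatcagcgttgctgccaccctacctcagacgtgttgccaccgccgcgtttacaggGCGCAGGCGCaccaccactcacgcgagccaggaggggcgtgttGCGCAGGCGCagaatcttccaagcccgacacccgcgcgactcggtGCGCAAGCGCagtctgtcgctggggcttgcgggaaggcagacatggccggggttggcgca
Atp5b: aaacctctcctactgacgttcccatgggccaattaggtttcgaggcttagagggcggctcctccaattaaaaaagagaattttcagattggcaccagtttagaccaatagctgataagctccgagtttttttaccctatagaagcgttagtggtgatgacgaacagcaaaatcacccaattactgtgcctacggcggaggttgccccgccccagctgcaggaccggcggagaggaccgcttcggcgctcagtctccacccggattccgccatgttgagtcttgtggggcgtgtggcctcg
Uqcrc1: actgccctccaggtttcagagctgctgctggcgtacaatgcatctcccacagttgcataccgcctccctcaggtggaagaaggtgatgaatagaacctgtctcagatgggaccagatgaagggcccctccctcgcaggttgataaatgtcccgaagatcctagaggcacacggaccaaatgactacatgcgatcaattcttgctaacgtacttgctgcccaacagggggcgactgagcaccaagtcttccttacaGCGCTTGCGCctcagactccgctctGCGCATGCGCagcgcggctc
Atp5g3: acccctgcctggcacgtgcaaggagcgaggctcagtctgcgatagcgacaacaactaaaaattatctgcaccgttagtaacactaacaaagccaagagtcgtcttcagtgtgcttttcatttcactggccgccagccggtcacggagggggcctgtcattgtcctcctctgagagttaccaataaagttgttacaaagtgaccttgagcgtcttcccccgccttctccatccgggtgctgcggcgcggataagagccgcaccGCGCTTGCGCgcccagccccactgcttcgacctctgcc

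The Sdha window held 3 such matches, starting at positions -98, -55 and -10 relative to the annotated start. Uqcrc1 had matches starting at 6 and 31, and Atp5g3 at 13, all downstream of the start. The Atp5b window held none. Nor did those of Atp5pb, Uqcrfs1 and Cox6b2, which are also among the 12 members with the smallest p in the test over all 22 groups. Of the 73 members with a window in the table, 18 (24.7%) had at least 1 match, against 7.85% of the 15614 tested genes with a window. The shares were 6 of 15 for complex V, 2 of 3 for complex II, 6 of 32 for complex I, 1 of 5 for complex III (Uqcrc1), 1 of 12 for complex IV and 2 of 6 for the assembly factors. The letters CCGGAAG or CTTCCGG, bound by ETS-family factors, were in 18 windows (24.7%, against 13.6%). The letters AAGATGGC or GCCATCTT, used here for YY1, were in 10 (13.7%, against 3.77%); the ETS and YY1 letters can overlap at AAG. None of these shares was matched for base composition.

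Before the comparisons, the libraries were set against their labels. The E10.5 libraries labelled mandibular arch epidermal ectoderm had a mean of 1.37 over 9 mesenchyme markers (1.21 to 1.59 in the 4 libraries) and of -0.16 over 10 surface ectoderm markers, so they did not look like ectoderm. The E10.5 libraries labelled maxillary arch ran from -0.53 to 2.47 in the surface ectoderm markers. Both groups are therefore called "the libraries labelled" so, and the ectoderm comparisons below use maxillary arch ectoderm, whose ectoderm markers had a mean of 1.30. Libraries also differed in array spread, the SD of all log2 ratios of a library, which ran from 0.40 to 1.35; 11 libraries exceeded 0.85.

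The members as a whole varied over the embryo no more often than other genes did. The test for any difference among the 22 groups called 47 of the 89 (52.8%), against 59% of all genes. Within E8.5 it called 1 (1.12%, against 4.25%), within E9.5 7 (7.87%, against 17.7%) and within E10.5 34 (38.2%, against 34.1%). By complex, the test over all groups called 17 of 36 in complex I, 4 of 4 in complex II, 5 of 8 in complex III, 7 of 17 in complex IV and 12 of 17 in complex V, and 2 of 7 assembly factors. The count within E9.5 was 4 without mandibular arch replicate 5 (12.8% of all genes called). It was 12 to 14 without epidermal ectoderm replicate 4 or 5, maxillary arch replicate 4 or 5, or otic vesicle replicate 4 (18.7% to 23.8%). The members with the smallest p were Ndufa4l2, Atp5b, Sdhc, Atp5a1, Sdha, Atp5pb, Ndufs1, Atp5g3, Cox4i2, Uqcrfs1, Uqcrc1 and Cox6b2.

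The range of a member's group means had a median of 2.44 in complex II, 1.95 in the assembly factors, 0.95 in complex I, 0.95 in complex V, 0.88 in complex III and 0.58 in complex IV, against 0.80 over all genes. The spread between libraries of a group ran with it: the median within-group SD was 0.72 in complex II, 0.97 in the assembly factors and 0.24 in complex IV, against 0.31 over all genes. Ndufa4l2 had the widest range of any member, 5.50, and Ndufs1, the iron-sulfur subunit that carries electrons from the NADH-binding arm of complex I, followed with 3.41. Flattest were Atp5j2 (0.25), Cox6c (0.26) and Cox6b1 (0.28), small subunits of complexes V and IV.

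The mean over all 89 members gives the level of the set in a library. At E8.5 it lay between -0.03 and 0.22 in all 18 libraries. At E9.5 it ran from -1.71 to 0.23 with a median of -0.05, and at E10.5 from -1.18 to 0.24 with a median of -0.07. The highest group means were those of E8.5 caudal neural epithelium (0.17 ± 0.04, SD, n = 4), E8.5 mesenchyme (0.16 ± 0.06, n = 5), and E10.5 neuroepithelium underlying the medial nasal prominence (0.16 ± 0.09, n = 4) and of the control region (0.14 ± 0.07, n = 4). The lowest were those of E10.5 medial nasal prominence (-0.52 ± 0.48, n = 4), Rathke's pouch (-0.39 ± 0.42, n = 5) and E9.5 epidermal ectoderm (-0.38 ± 0.60, n = 7). This order depended on the scaling: with quantile normalization the caudal mean was -0.062 and that of E8.5 mesenchyme 0.025, the highest was that of E10.5 control neuroepithelium (0.091) and the lowest that of E9.5 mandibular arch (-0.25). Neighbouring groups in this order overlap, and the low groups hold both low and ordinary libraries.

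**Figure D1:**
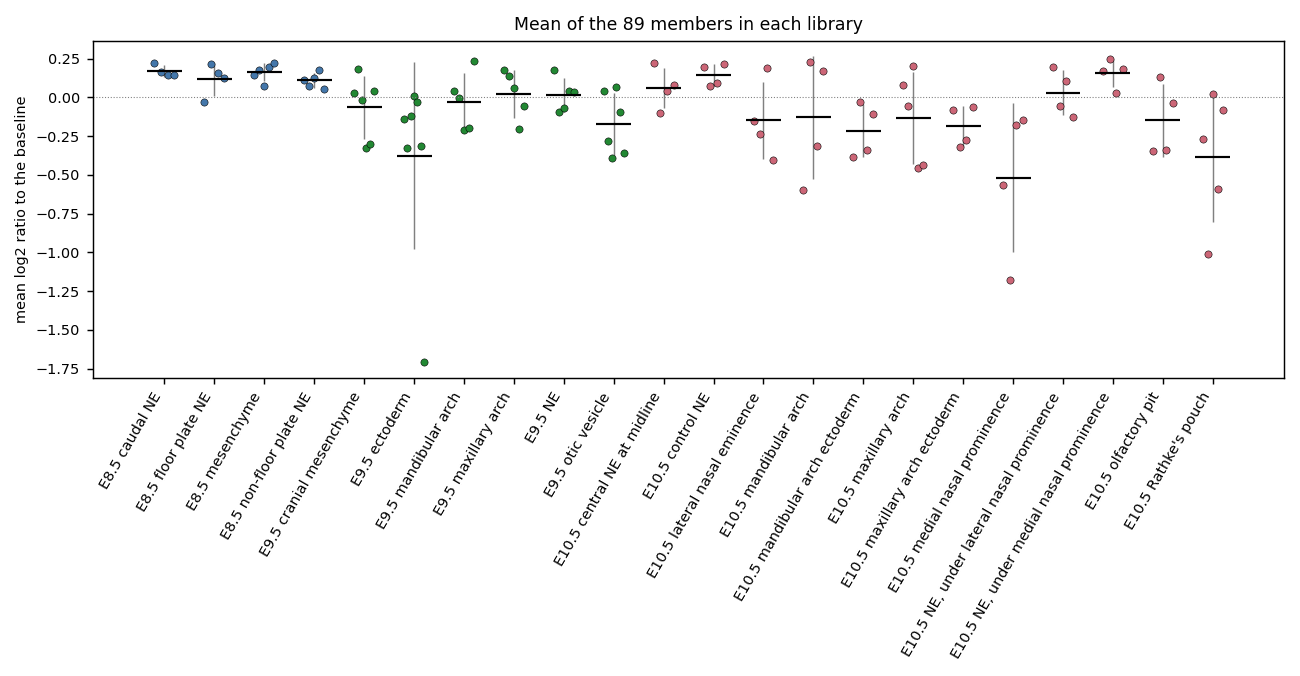
Mean log2 ratio of the 89 members in each library (points), with group mean (line) and SD (grey bar), for the 22 groups; E8.5 blue, E9.5 green, E10.5 red. The 4 E8.5 groups are tight, and the low means of E9.5 ectoderm and E10.5 medial nasal prominence rest partly on single libraries at -1.71 and -1.18.

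The member mean moved with array spread. Across the libraries of the 22 groups Pearson's r was -0.82 and Spearman's rho -0.60; over the 91 libraries with a spread of at most 0.85, r was -0.52. After group means were removed, r was -0.85. The widest library had the lowest member mean in 14 of the 22 groups. The within-group correlation with spread had a median of -0.52 over the members and was below 0 for 84 of 89, while the median over all genes was 0.01 and 48.6% were below 0. These correlations are descriptions, since all genes of a library share its RNA and amplification. In bulk samples such as these, fewer cells of a type and less RNA per cell cannot be told apart, and the part of RNA quality in the low means was not tested.

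**Figure D2:**
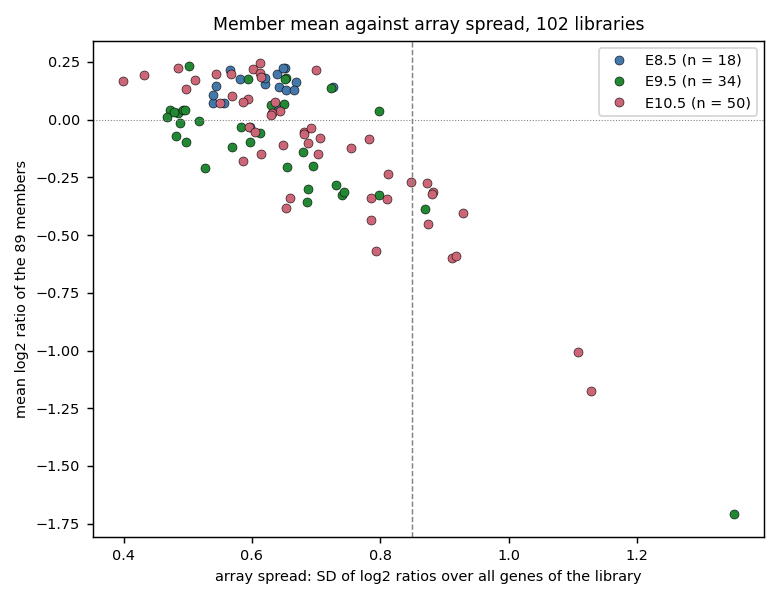
Mean log2 ratio of the 89 members against array spread (SD of log2 ratios over all genes) for the libraries of the 22 groups, coloured by stage; the dashed line marks a spread of 0.85. The 11 libraries beyond it have member means from -1.71 to -0.27.

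The clearest difference among the common subunits lay between E10.5 neuroepithelium and the nasal prominences. Neuroepithelium of the control region and of both prominences (12 libraries) was set against lateral nasal eminence and medial nasal prominence (8 libraries). Of the 89 members, 32 were higher in neuroepithelium (36%, against 20.9% of all genes) and 3 were lower (3.37%, against 10%). The median difference was 0.27 over the members and 0.05 over all genes. All 4 complex II subunits rose, as did 4 of 8 in complex III, 8 of 17 in complex V, 12 of 36 in complex I and 4 of 17 in complex IV, and no assembly factor was called. Neural markers averaged 1.55 to 1.70 in the neural groups and -0.46 and -0.47 in the prominences.

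Sdha, the flavoprotein of complex II that oxidises succinate, carried the difference in nearly every library. In control neuroepithelium its log2 ratios were 1.22, 0.73, 0.00 and 1.81. Under the lateral prominence they were 0.78, 1.16, 1.11 and 0.32, and under the medial prominence 0.92, 0.38, 1.77 and 1.64. In lateral nasal eminence they were -2.13, -0.89, 0.36 and -1.75, and in medial nasal prominence -1.35, -1.87, -0.91 and -1.91. Lateral nasal eminence replicate 3 was the exception, reaching into the neural range; the other 7 prominence libraries were below every neural library. The difference was 2.29 ± 0.41 (SE), 4.90-fold, with a limma adjusted p of 2.32e-05.

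Sdhc, a membrane anchor of complex II, ranged from -0.25 to 0.72 in the 12 neural libraries. In lateral nasal eminence it was 0.15, -3.23, -0.28 and -0.97, and in medial nasal prominence -2.22, -3.14, -1.60 and -1.88. All 4 medial libraries lay far below the neural range and 1 lateral library lay inside it. The difference was 1.90 ± 0.30 (adjusted p 1.42e-06). Sdhd, the other anchor, differed by 1.29 ± 0.37 and Sdhb, the iron-sulfur subunit, by 0.68 ± 0.21, a call that ended without medial nasal prominence replicate 2.

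The head of ATP synthase behaved alike in its catalytic pair. Atp5b, the catalytic beta subunit, ranged from -0.25 to 0.55 in the neural libraries. It was -0.65, -2.01, -0.01 and -1.85 in lateral nasal eminence and -1.93, -2.89, -1.52 and -1.40 in medial nasal prominence, so that only lateral replicate 3 overlapped. The difference was 1.76 ± 0.26 (3.39-fold, adjusted p 3.17e-07). Atp5a1, the alpha subunit, differed by 2.15 ± 0.37 and Atp5c1, the central gamma stalk, by 1.22 ± 0.32. Atp5c1 was -4.77 in medial nasal prominence replicate 2, without which its difference was 0.72 and not called (adjusted p 0.051). Atp5d and Atp5e, the small delta and epsilon subunits of the same head, differed by 0.30 ± 0.14 and -0.09 ± 0.09 and were not called. Of the c-ring isoforms, Atp5g3 (0.79 ± 0.13) and Atp5g2 (0.83 ± 0.19) rose, and Atp5g1 differed by 0.33 ± 0.15.

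In complex III, Uqcrc2 and Uqcrc1, the large core proteins, differed by 2.49 ± 0.47 and 1.54 ± 0.40, and Uqcrfs1, the Rieske iron-sulfur protein, by 0.90 ± 0.19. Uqcrc1 was -0.45, -1.68, 0.28 and -0.04 in lateral nasal eminence and -2.58, -3.50, -0.83 and -1.12 in medial nasal prominence. Its neural libraries ran from -1.09 to 0.86, so 3 of the lateral libraries and 1 of the medial ones lay within the neural range. Of the 5 other subunits of the complex, Uqcrh (0.27 ± 0.07) was the 1 called.

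In complex I, 5 of the 6 core subunits measured rose (Ndufs1, Ndufs3, Ndufs7, Ndufv1 and Ndufv2), with a median difference of 1.00, and 7 of 30 accessory subunits did, with a median of 0.17; the background was 20.9% of all genes. This division by role was made after the values were seen. Ndufs1 was -2.23, -3.22, -0.58 and -2.49 in lateral nasal eminence, and -3.14, -3.19, -1.06 and -0.46 in medial nasal prominence, against -2.88 to 1.44 in the neural libraries, where 1 library under the lateral prominence gave the low end. Its difference was 2.10 ± 0.48. Ndufv1, the flavoprotein that accepts electrons from NADH, differed by 1.71 ± 0.41, and Ndufa9, an accessory subunit, by 1.76 ± 0.49. Ndufa9 was -5.95 in medial nasal prominence replicate 2, without which its difference was 1.17 and not called (adjusted p 0.060), and the Ndufs3 call ended without that library too.

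Complex IV had the smallest median difference of the 5 complexes, 0.14, with 4 members higher and 2 lower. Cox5a rose by 0.84 ± 0.14 and Cox4i1, the common isoform of subunit 4, by 0.27 ± 0.07, and Cox7b and Cox7a2l were also called. Cox4i2, the isoform of subunit 4 linked to low oxygen, was lower in neuroepithelium (-0.90 ± 0.35, a call that ended when any 1 of 9 of the 20 libraries was left out) and Cox6a2, the muscle isoform of subunit 6a, was lower too (-0.55 ± 0.19). Atp5md, a small subunit of complex V, differed by -0.51 ± 0.18. Without medial nasal prominence replicate 2 the calls of Cox7b, Cox6a2 and Atp5md ended (limma adjusted p 0.207, 0.059 and 0.054). That of Cox4i2 ended there too (0.085). The common isoforms Cox6a1, Cox6b1, Cox7a2 and Cox8a and the isoforms Cox6b2, Cox7a1, Cox7b2, Cox8b and Cox8c were not called, nor was Ndufa4, a protein named for complex I that is now assigned to complex IV.

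**Figure D3:**
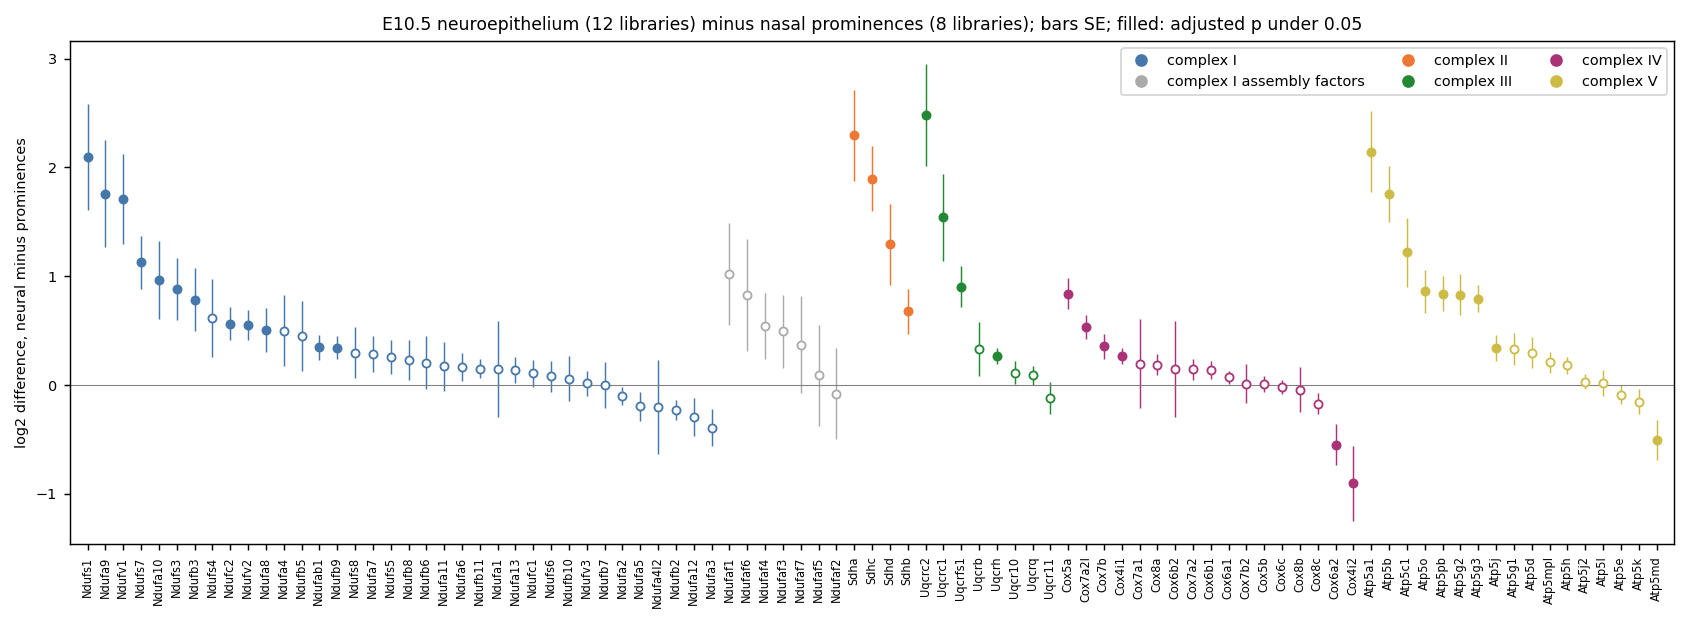
Log2 difference of each of the 89 members, E10.5 neuroepithelium (12 libraries) minus nasal prominences (8 libraries), with SE bars, by complex; filled points passed an adjusted p of 0.05. In each of complexes I, III and V a few points near or above 1.5 lead a flat tail of small subunits, while all 4 points of complex II are filled.

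The prominence libraries also had wider arrays. Lateral nasal eminence had spreads from 0.43 to 0.93 and medial nasal prominence from 0.59 to 1.13, against 0.51 to 0.75 in the 12 neural libraries. Lateral replicate 3, the narrowest at 0.43, had a member mean of 0.19, within the neural range. When the 4 prominence libraries wider than 0.754 were left out, 3 of the 89 members were still called, against 2.87% of all genes. They were Sdha (2.14, adjusted p 0.011), Sdhc (1.15, 0.040) and Atp5b (1.12, 0.025). The share of members called was close to the background, so the members as a set did not stand apart in this setting. Without medial nasal prominence replicate 2 alone, 21 of the 89 members were called, 20 higher and 1 lower. Of all genes, 22.4% were called in either direction in that setting, so the share of members called was close to the background. Sdha, Sdhc and Atp5b passed in all 12 other settings and with each of the 20 libraries left out in turn. Blood and vessel markers differed little between the groups: erythroid means were 0.04 to 0.37 in the neural groups and 0.39 and 0.50 in the prominences, and endothelial means 0.20 to 0.39 and 0.15 and 0.53; their part in the result was not tested.

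Other gene lists were set against the same background, 20.9% of all genes higher and 10% lower. They were counted with the wider prominence libraries kept, and not without them. Of 12 citric acid cycle genes, 11 were higher in neuroepithelium (median difference 1.90), and of 77 mitochondrial ribosomal proteins 39 were higher (50.6%) and 1 lower (median 0.72). Of 13 biogenesis regulators 7 were higher, of 26 assembly factors outside the symbol rule 8 were higher (30.8%) and 2 lower, and of 5 electron carriers 3 were higher. Of 16 glycolysis genes 9 were higher as well (median 0.98). Of 71 cytosolic ribosomal proteins 8 were higher and 2 lower, with a median of -0.03.

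Members of complexes I to V were also lower in the E10.5 prominences than in E9.5 cranial mesenchyme. Here 12 members were lower (13.5%, against 3.26% of all genes) and 0 higher (against 0.707%; limma; 32 members, 36%, had an unadjusted p under 0.05 in either direction, as did 20.2% of all genes). They were Atp5a1, Atp5b, Atp5g3, Atp5pb, Cox5a, Cox7a2l, Ndufs7, Ndufv1, Sdhc, Uqcrc1, Uqcrc2 and Uqcrfs1; Sdha, Sdhb, Sdhd, Ndufs1 and Atp5c1 were not called. The largest differences were those of Uqcrc2 (-2.09 ± 0.55), Atp5a1 (-1.81 ± 0.44), Ndufv1 (-1.75 ± 0.49) and Uqcrc1 (-1.75 ± 0.47). Atp5b was 0.17, 0.59, -0.04, -0.16, -0.35 and -0.03 in cranial mesenchyme, close to its level in neuroepithelium, and the difference was -1.56 ± 0.31 (adjusted p 0.0013). This comparison shares the prominence libraries with the preceding comparison, and its groups differ in region as well as in stage. The count of members called depended on single libraries, and the share of all genes called moved too. The count was 2 without cranial mesenchyme replicate 2 (0.883% of all genes called) and 4 without medial nasal prominence replicate 2 (1.14%). Without lateral nasal eminence replicate 2 or 4 it was 7 (1.80% and 1.43%). With array spread as a covariate it was 2. When the compared groups alone were fitted it was 0, and 8 of all genes were called.

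Whether the neural minus mesenchymal difference was unlike in the E9.5 and E10.5 groups was tested as a difference of differences. The E10.5 groups were nasal prominences and regional neuroepithelium, those at E9.5 cranial mesenchyme and neuroepithelium. Stage and region therefore cannot be told apart here. Atp5b (1.76 ± 0.43, adjusted p 0.029) and Atp5g3 (0.81 ± 0.21, adjusted p 0.046) were called, 2 members (2.25%) against 0.316% of all genes, both with a higher difference at E10.5. At E9.5 itself, neuroepithelium against cranial mesenchyme called 0 members in limma, against 1.15% of all genes (3 members, 3.37%, had an unadjusted p under 0.05, as did 7.15% of all genes). Both calls ended when any 1 of 8 of the 31 libraries was left out: E9.5 cranial mesenchyme replicate 2, E9.5 neuroepithelium replicate 2, 3, 4 or 5, lateral nasal eminence replicate 2 or 4, or medial nasal prominence replicate 2. The Atp5g3 call ended for 21 of them. The count rose to 5 without lateral nasal eminence replicate 3 (1.60% of all genes called) and to 4 without medial nasal prominence replicate 3 (0.903%).

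At E9.5, epidermal ectoderm differed from the mandibular and maxillary arches in 33 members (37.1%, against 37% of all genes), so the members did not stand apart from the background. Of these, 27 were lower in ectoderm (30.3%, against 23.3%) and 6 higher (6.74%, against 13.6%). Uqcrc2 (-1.95 ± 0.51), Ndufs1 (-1.77 ± 0.52), Ndufaf7 (-1.77 ± 0.48) and Atp5a1 (-1.54 ± 0.40) were the lowest, and Atp5md (0.96 ± 0.20), Ndufs6 (0.64 ± 0.15), Ndufa3 (0.54 ± 0.18) and Cox8c (0.35 ± 0.10) the highest. Uqcrc1 was -0.16, -0.48, -0.88, -0.29, -0.29, -0.84 and -2.01 in ectoderm and between 0.01 and 1.14 in the 10 arch libraries, which did not overlap (0.943% of all genes were without overlap). Replicate 7 of the ectoderm, with a spread of 1.35 and a member mean of -1.71, was far below the others in most complexes. Without it 13 members were called, 5 higher and 8 lower (against 20.9% of all genes); Uqcrc2 (-1.25), Ndufs1 (-1.52), Ndufaf7 (-1.51) and Atp5a1 (-1.11) were still called, as were Atp5md and Ndufs6, while the calls of Ndufa3 and Cox8c ended. The count was 12 when the compared groups alone were fitted. With replicate 7 kept, all 12 citric acid cycle genes and 39 of 77 mitochondrial ribosomal proteins were lower in the same comparison. These lists were not counted without that library.

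Ndufa4l2 was the member with the largest change, and its pattern differed from that of Sdha and Atp5b. It encodes a relative of Ndufa4 that is induced by hypoxia-inducible factor in low oxygen. In E8.5 mesenchyme its log2 ratios were 5.64, 5.48, 4.62, 5.22 and 5.65. In caudal neural epithelium they were 0.35, 2.91, 2.36 and 4.49, in floor plate 0.16, 1.54, 3.89 and 4.25, and in non-floor plate 3.46, 3.08, -0.08, 1.16 and 2.44. Every mesenchyme library was above every neural library, and the neural libraries were widely scattered. The difference was 2.99 ± 0.50 (7.94-fold, adjusted p 1.11e-05), and Ndufa4l2 was the 1 member called in this comparison (1.12%, against 1.65% of all genes higher; 0.747% of all genes were without overlap). It was not called when the E8.5 groups alone were fitted (adjusted p 0.139).

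At E9.5 Ndufa4l2 was low in mesenchyme. Cranial mesenchyme gave 0.00, -0.17, -0.17, 0.07, 0.23 and 1.01, none near the E8.5 libraries. The difference, -5.16 ± 0.57 (35.8-fold, adjusted p 2.23e-10), was called with each of the 11 libraries left out in turn and in all 10 other settings. High single libraries were seen later in the libraries labelled E10.5 maxillary arch (replicate 3, 4.79) and in olfactory pit (replicate 1, 3.57). E8.5 mesenchyme also had higher endothelial markers (mean 1.69) than the E8.5 neural groups (-0.41 to -0.10), and E9.5 cranial mesenchyme had a mean of 1.00. Erythroid markers were lower at E8.5 than later (mean -2.01 in mesenchyme, 0.85 in cranial mesenchyme); their part in the result was not tested.

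Cox4i2, which replaces Cox4i1 in complex IV in some tissues under low oxygen, fell in the same step. It was 1.32, 1.70, 1.92, 0.95 and 1.84 in E8.5 mesenchyme and -0.16, -0.38, -0.02, -1.06, -1.02 and -0.25 in cranial mesenchyme, without overlap (as 2.47% of all genes were). The difference was -2.03 ± 0.46 (adjusted p 0.0051). With Ndufa4l2 it made 2 members lower (2.25%, against 1.15% of all genes) and 0 higher (against 0.381%; limma; 4 members, 4.49%, had an unadjusted p under 0.05 in either direction, as did 11.8% of all genes). Cox4i2 also reached 2.39, 2.56, 0.37 and 1.55 in E10.5 maxillary arch ectoderm. It was the 1 member called against E9.5 ectoderm, higher by 1.92 ± 0.47 (1.12% of members, against 0.181% of all genes), and the 1 called in Rathke's pouch against that ectoderm, with a difference of -1.98 ± 0.51 (1.12%, against 0.943%). The ectoderm call ended when any 1 of 6 of the 11 libraries was left out (E9.5 ectoderm replicate 2, 4, 6 or 7, or E10.5 replicate 1 or 2). The Rathke's pouch call ended without maxillary arch ectoderm replicate 1 or 2 or Rathke's pouch replicate 1, 4 or 5.

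**Figure D4:**
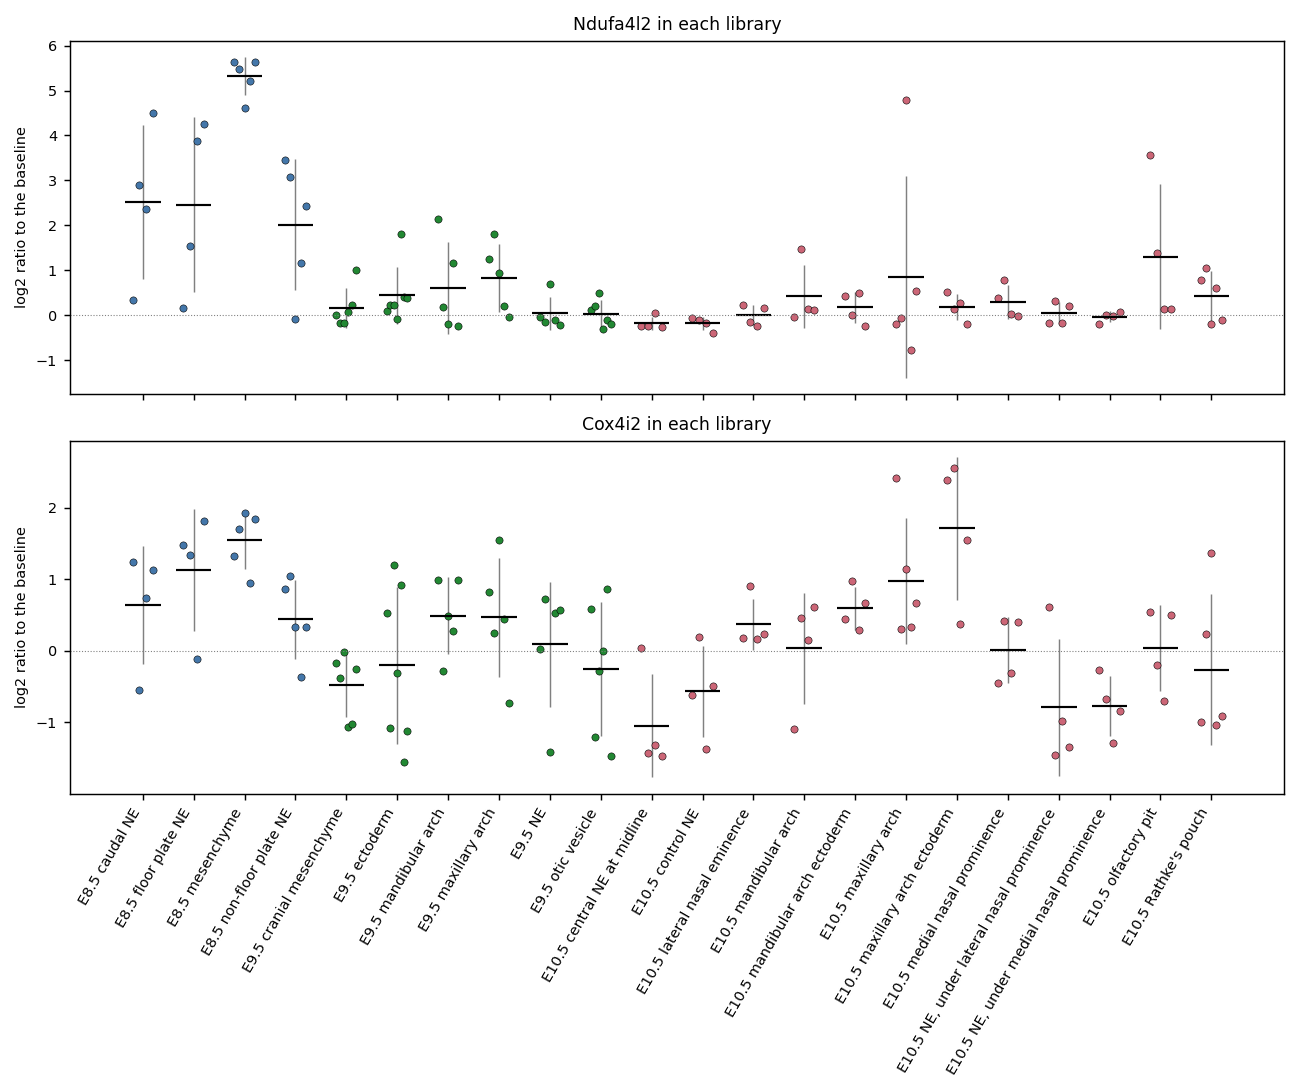
Log2 ratio of Ndufa4l2 (top) and Cox4i2 (bottom) in each library (points), with group mean (line) and SD (grey bar); E8.5 blue, E9.5 green, E10.5 red. Ndufa4l2 sits between 4.62 and 5.65 in E8.5 mesenchyme and near 0 in E9.5 cranial mesenchyme, and the Cox4i2 group mean is highest in E10.5 maxillary arch ectoderm. NE stands for neural epithelium or neuroepithelium.

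Other tissue isoforms of complex IV varied without a shared pattern. Cox6b2, the testis isoform of subunit 6b, was lowest in E9.5 otic vesicle (-1.04, -3.17, 0.45, -1.48, -3.48 and -3.23) and highest in E10.5 lateral nasal eminence (1.22, 0.97, 1.34 and 1.39); the test among E9.5 groups called it (adjusted p 0.0072). Cox7a1, the heart and muscle isoform of subunit 7a, was 0.95, 2.06, 2.29 and 1.01 in the libraries labelled E10.5 mandibular arch and -1.33, -0.97, -1.28 and -1.22 in E10.5 maxillary arch ectoderm (test among E10.5 groups, adjusted p 0.0057). Cox7b2 and Cox8b each stood out in 1 library, at 3.87 in replicate 3 of the libraries labelled E10.5 mandibular arch and at 4.15 in otic vesicle replicate 1, and reached at most 0.80 and 0.49 in the others. The common isoforms Cox6a1, Cox6b1, Cox7a2 and Cox8a had group means within 0.46 of each other.

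Between the E9.5 and E10.5 libraries labelled maxillary arch, Sdhd (-1.58 ± 0.52), Atp5d (-0.68 ± 0.20) and Cox4i1 (-0.38 ± 0.10) were lower, 3 members (3.37%, against 6.88% of all genes), and 0 higher (against 1.68%; limma; 11 members, 12.4%, had an unadjusted p under 0.05 in either direction, as did 27.2% of all genes). The count was 0 without E9.5 replicate 2 or E10.5 replicate 4 (1.79% and 3.18% of all genes called). It was 1 without E9.5 replicate 1 or 3 (2.72% and 3.73%) and 5 without E10.5 replicate 1 or 3 (11.3% and 10.7%). With the compared groups alone it was 0, and 34 of all genes were called. The count thus moved with the share of all genes called.

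The other comparisons called 0 members in limma. These were neuroepithelium at E9.5 against E8.5 (1.06% of all genes called), neuroepithelium at E10.5 against E9.5 (0.426%), E8.5 caudal against non-floor plate neural epithelium (1.42%), E9.5 otic vesicle against ectoderm (0.391%), E10.5 midline against control neuroepithelium (0.471%) and E10.5 olfactory pit against maxillary arch ectoderm (0.687%). At an unadjusted p under 0.05 the members numbered 5 (5.62%, against 8.74% of all genes), 1 (1.12%, against 5.66%), 0 (against 7.40%), 19 (21.3%, against 11.1%), 2 (2.25%, against 4.67%) and 6 (6.74%, against 10%) in that order. Leaving out E8.5 non-floor plate replicate 3 brought the members called in the first to 1 (0.848% of all genes). Leaving out olfactory pit replicate 1 brought those in the last to 1 (0.436%). Few genes of any kind passed in these comparisons, so the counts say little about the members.

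The 10 genes outside the set whose 22 group means followed the member mean most closely were Msh6, Psmb7, Rnaseh2b, Rad1, Psma5, Oard1, Polr1c, Prim1, Bcas2 and Eif3i. Pearson's r ran from 0.947 to 0.964, as a description over groups that share array spread as well. Among the members Atp5o (r = 0.96) and Atp5g2 (0.94) were closest to the mean of which they are part.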

How the data were processed

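RNA of 103 laser-captured samples had been amplified and hybridised to Affymetrix arrays. RMA and the mouse build mm9 are named in the submitters' processing notes; the versions are not given in the sources used here. The values are linear ratios that the authors deposited for 35557 probe sets, of which 6701 held no value. Over 21 samples the deposited ratios of every probe set have a median of 1, so these samples form the baseline; they hold none of medial nasal prominence, olfactory pit and neuroepithelium underlying the lateral nasal prominence. The smallest ratio is 0.01, which 2 members reach. The log2 of the deposited ratio was used, with no pseudocount. The files give no scan date or batch, and the number of arrays limits the precision.

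Probe sets with 1 symbol were kept (21789), and for a gene with several, as for 17 members, the probe set with the highest mean log2 ratio. This gave 19938 genes. Of 117 probe sets that fit the symbol rule, 3 carried several symbols and were left out. All genes were fitted with limma 3.58.1 (R 4.3.3) with a mean for each of 22 groups over all grouped samples (80 residual degrees of freedom, no covariate). There were 16 contrasts and 4 moderated F tests, with p-values adjusted by Benjamini-Hochberg over all genes and called under 0.05. Python 3.11.15 with pandas 2.3.3 and numpy 2.4.6 made the other summaries. The fit was tested on simulated data. Replicate numbers were not used as pairs in the main fit. In no comparison did every pair of same-numbered samples correlate above 0.1 in their deviations from the group means. In the maxillary arches 4 of 5 did, and the highest r in E9.5 ectoderm against arches was 0.60. These correlations cannot show whether same-numbered samples share an animal, so a replicate block was run as an alternative.

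Of the E10.5 neuroepithelium samples, 4 are titled lateral nasal prominence but medial in every further label; they were grouped as neuroepithelium underlying the medial prominence, with the other reading as an alternative. Libraries 1 and 3 labelled mandibular arch epidermal ectoderm were unusually alike (r = 0.947 over all genes) and were also averaged as an alternative. The alternatives were median centring, quantile normalization, array spread as a covariate, libraries with a spread over 0.85 left out, limma's array weights, a robust prior with a mean-variance trend, averaging a gene's probe sets, genes at the smallest ratio left out, the compared groups alone, a replicate block, other readings of conflicting labels, and each library left out. Keeping only prominence libraries no wider than the widest neural library was added after the data were seen, as was the averaging of the alike pair.

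The members, the gene lists and the rule for named genes were chosen with earlier results of these data known. The rule named the 12 members with the smallest p over the 22 groups, up to 4 called members of each direction per comparison, and the listed catalytic subunits and isoforms; other members named were chosen after their values were seen.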

Additional observations from a re-analysis of the deposited data

Results flagged for a closer look

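Samples far from the rest of their group were looked for in 14 measures: the member mean, the means of the complexes and selected members. Of 308 combinations of a group and a measure, 28 had such a sample. Chance alone marks about 1 in 20 independent tests. The measures share genes and libraries, so the count cannot be set against that rate. The causes were not tested.

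Epidermal ectoderm replicate 7 at E9.5 was the lowest of its group in many of them. Its member mean was -1.71 (next lowest -0.33), its complex I mean -2.11, its complex III mean -1.65 and its complex V mean -1.50. Its log2 ratio was -2.74 for Sdha (next -0.44), -3.78 for Atp5a1 (next -1.18) and -2.01 for Uqcrc1 (next -0.88). Its array spread, 1.35, was the widest of all libraries. Otic vesicle replicate 3 at E9.5 was low for Sdha (-2.82, next 0.14) and Uqcrc1 (-1.92, next 0.21).

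At E8.5, floor plate replicate 1 was low in complex I (-0.12, next 0.12) and complex V (-0.06, next 0.09), mesenchyme replicate 3 was low in complex I (0.06, next 0.15), and caudal neural epithelium replicate 2 was low in Sdhc (0.46, next 0.56). These gaps are small beside those at later stages. At E10.5, neuroepithelium under the lateral prominence had a low complex II mean in replicate 4 (-0.27, next 0.48) and a high Atp5a1 in replicate 1 (0.22, next -0.05). Neuroepithelium under the medial prominence had a low Uqcrc1 in replicate 3 (0.50, next 0.72), and midline neuroepithelium a high complex III mean in replicate 1 (0.31, next 0.08). Sdhc was low in olfactory pit replicate 1 (-2.63, next -0.47). At E9.5, Sdha was high in cranial mesenchyme replicate 2 (1.21, next -0.09) and in neuroepithelium replicate 1 (1.35, next 0.32).

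Ndufa4l2 had a single high library in several groups. It was 4.79 in replicate 3 of the libraries labelled E10.5 maxillary arch (next 0.54), 1.47 in replicate 2 of those labelled E10.5 mandibular arch (next 0.14) and 0.04 in midline neuroepithelium replicate 3 (next -0.24). At E9.5 Ndufa4l2 was 1.82 in epidermal ectoderm replicate 5 (next 0.40), 1.01 in cranial mesenchyme replicate 6 (next 0.23) and 0.70 in neuroepithelium replicate 3 (next -0.05). Cox4i2 was high in lateral nasal eminence replicate 2 (0.90, next 0.24) and midline neuroepithelium replicate 1 (0.04, next -1.31).

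The neural minus mesenchymal difference was unlike in the E9.5 and E10.5 groups for Atp5b, by 1.76 (limma adjusted p 0.0288), and for Atp5g3, by 0.81 (0.0463). The groups differ in region as well as in stage. Leaving out each of the 31 libraries in turn gave 0 to 5 members called in this comparison.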

How the results depend on the processing

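Counts are of members called by limma. The share of all genes called also moved between settings. Where it is not given beside a count, that count cannot be read against the background. Among counts and group means 693 values over all alternatives stayed close to the reported one and 101 moved; of single called genes 2140 kept their call, 477 lost it and 1 reversed, Ndufab1 between E10.5 neuroepithelium and prominences (-0.026 without the wide prominence arrays). The causes were not tested. Fitting the compared groups alone leaves fewer samples and also estimates the spread between libraries from those groups only. E10.5 neural against prominences fell from 35 to 3 without the wide prominence arrays, and the share of all genes called fell from 30.9% to 2.87%. With quantile normalization, neuroepithelium at E9.5 against E8.5 gave 2, at E10.5 against E9.5 1, ectoderm between stages 0, otic vesicle 1, the difference of differences 10 and the test among E9.5 groups 17. The group means of the member mean became -0.062 for caudal, 0.025 for E8.5 mesenchyme, -0.021 for non-floor plate, -0.25 for E9.5 mandibular arch, 0.016 for maxillary arch ectoderm and 0.063 for neuroepithelium under the medial prominence; median centring gave 0.13 for caudal. Leaving out the widely spread arrays gave 11 for the test among E9.5 groups. With array spread as a covariate the E10.5 mesenchyme step gave 2, ectoderm between stages 7, Rathke's pouch 2 and the difference of differences 6. With array weights the neuroepithelium steps gave 4 and 1, the E9.5 mesenchyme step 5, maxillary arch 8, ectoderm between stages 0, E9.5 neural against mesenchyme 1, otic vesicle 1, olfactory pit 1, the difference of differences 17 and the test among E9.5 groups 18. A variance trend with robust prior gave 1 for the difference of differences. With the compared groups alone, the E10.5 mesenchyme step, maxillary arch, ectoderm between stages, E8.5 mesenchyme against neural and Rathke's pouch gave 0. E9.5 ectoderm against arches gave 12. Of all genes, 8, 34, 1, 372, 9 and 3907 were called there in that order. With the replicate block as well the members called were 0, 0, 0, 0, 0 and 2, and the genes called 1, 27, 0, 274, 3 and 704. With the block, the E9.5 mesenchyme step gave 1 member (5 of all genes). E10.5 neural against prominences gave 35 members with the block and 33 without it (5340 and 5713 of all genes). Leaving out each library gave 0 to 1 for neuroepithelium at E9.5, 2 to 17 for the E10.5 mesenchyme step, 0 to 5 for maxillary arch, 0 to 1 for ectoderm between stages, 13 to 35 for E9.5 ectoderm against arches, 21 to 38 for E10.5 neural against prominences, 0 to 1 for olfactory pit, 0 to 3 for Rathke's pouch, 0 to 5 for the difference of differences, 4 to 14 for the test among E9.5 groups, 25 to 36 among E10.5 groups and 45 to 53 among all groups. The tests among E10.5 groups and among all groups were run with 42 and 94 libraries left out in turn. The share of all genes called was 4.58% where Rathke's pouch gave 3 and 1.60% where the difference of differences gave 5. In the test among E9.5 groups it was 12.8% where the count was 4 and 23.8% where it was 14.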

Other observations

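The E9.5 library whose labels conflict had a member mean of 0.23 and an array spread of 0.52. Its log2 ratio was 0.80 for Sdha, 0.41 for Atp5b and 0.41 for Ndufa4l2.

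Several small subunits ran against the member mean over the 22 group means. Pearson's r was -0.87 for Cox6a2, -0.83 for Atp5md, -0.76 for Cox8c, -0.70 for Ndufa3, -0.68 for Ndufa12 and -0.64 for Ndufa5, as a description over groups that share their array spread. These members encode small accessory subunits or tissue isoforms, and were picked for this sign after the values were seen.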
